A study of Mus musculus with 9 samples.

Results

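CpG-dense stretches of the genome that were nevertheless methylated were described in mouse nucleus accumbens. They are autosomal regions of 1 kb, on a fixed grid, with 40 or more CpGs listed in any library, at least 100 calls in every library and a pooled Control methylation of 70% or more. The rule found 1236 regions among 18749 that met the CpG and call minimums, or 6.59% of these dense regions, and among 2283079 autosomal regions with any listed CpG. The members were chosen by their measured Control level. Their Control levels and the density that selected them are therefore given as a description, while position, neighbouring regions and the methylation levels of the 4 Susceptible libraries did not enter the choice.

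Whole-genome bisulfite sequencing was performed on tissue punches from the nucleus accumbens, a ventral striatal region of the reward circuit. Both groups were male C57BL/6J mice aged 8 weeks, with 5 libraries labelled Control (numbers 2, 3, 4, 5 and 8) and 4 labelled Susceptible (numbers 2, 3, 6 and 7). The protocol text of every library describes 10 daily defeats by an aggressive CD1 male, and the handling of Control animals and the scoring of susceptibility were not described in the labels used here. The methylation level is the percent of calls that stayed cytosine after bisulfite, which does not tell methylated from hydroxymethylated cytosine, and a punch mixes neurons and glia.

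In mammals most CpGs are methylated, and CpG islands, where CpGs are dense, are usually free of methylation and lie at gene starts. Dense sequence that is methylated is known from inside transcribed genes and from promoters of germline genes, whose methylation in somatic tissues goes with their silence outside the gonads. Imprinted control regions carry methylation on 1 parental copy and so stand near the middle of the scale.

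Promoter sequences of 7 member regions are shown first, because a methylated dense region at a start site sits where an unmethylated island would usually be. Each runs from 250 bases before to 30 bases after a start site, 5′ to 3′ on the gene's strand, from RefSeq on GRCm38.p6. A CG in capitals is a CpG at 70% or more in the pooled Control calls, and a cg in lower case is below that level. The first 5 are the protein-coding start sites whose regions hold the most CpGs, and Sycp3 and Adcy3 were added after their values were seen. Hsf5, a heat shock factor family member of the testis, is at chr11:87616914-87617193 on the + strand. Dazl, an RNA-binding protein of germ cells, is at chr17:50293591-50293870 on the - strand. D1Pas1, a testis DEAD-box helicase, is at chr1:186967166-186967445 on the + strand. Ddx4, the Vasa helicase that marks germ cells, is at chr13:112652281-112652560 on the - strand. Mael, a factor of the piRNA pathway, is at chr1:166238715-166238994 on the - strand. Sycp3, a protein of the synaptonemal complex of meiosis, is at chr10:88459337-88459616 on the + strand. Adcy3, an adenylyl cyclase, is at chr12:4133903-4134182 on the + strand.
Hsf5: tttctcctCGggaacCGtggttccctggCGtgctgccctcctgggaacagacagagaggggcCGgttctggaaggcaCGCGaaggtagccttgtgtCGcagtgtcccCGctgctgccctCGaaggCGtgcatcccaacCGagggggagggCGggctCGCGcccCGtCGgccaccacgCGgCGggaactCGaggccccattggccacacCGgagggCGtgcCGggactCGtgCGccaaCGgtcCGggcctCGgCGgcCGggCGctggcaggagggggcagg
Dazl: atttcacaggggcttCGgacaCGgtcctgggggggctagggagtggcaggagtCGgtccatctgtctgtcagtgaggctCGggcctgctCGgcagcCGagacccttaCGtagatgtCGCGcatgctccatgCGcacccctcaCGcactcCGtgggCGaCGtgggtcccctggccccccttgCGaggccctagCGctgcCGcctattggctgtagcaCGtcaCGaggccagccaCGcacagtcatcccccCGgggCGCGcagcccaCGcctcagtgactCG
D1Pas1: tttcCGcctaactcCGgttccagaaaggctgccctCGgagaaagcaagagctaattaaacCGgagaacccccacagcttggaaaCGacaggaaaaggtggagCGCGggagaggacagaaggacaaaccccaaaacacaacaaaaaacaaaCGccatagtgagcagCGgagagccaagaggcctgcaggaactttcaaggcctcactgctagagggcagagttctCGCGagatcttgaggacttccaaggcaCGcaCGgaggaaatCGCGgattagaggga
Ddx4: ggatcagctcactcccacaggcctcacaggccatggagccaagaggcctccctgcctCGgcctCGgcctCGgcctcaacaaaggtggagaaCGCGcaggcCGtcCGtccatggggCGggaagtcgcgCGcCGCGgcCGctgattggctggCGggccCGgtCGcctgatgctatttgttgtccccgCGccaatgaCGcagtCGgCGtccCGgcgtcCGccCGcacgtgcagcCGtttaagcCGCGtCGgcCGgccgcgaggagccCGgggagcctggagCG
Mael: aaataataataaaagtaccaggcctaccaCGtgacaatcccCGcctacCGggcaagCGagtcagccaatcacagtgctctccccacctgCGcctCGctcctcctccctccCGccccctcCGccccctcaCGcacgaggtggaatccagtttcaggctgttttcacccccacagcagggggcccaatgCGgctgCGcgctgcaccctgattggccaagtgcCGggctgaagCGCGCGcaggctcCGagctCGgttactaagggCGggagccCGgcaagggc
Sycp3: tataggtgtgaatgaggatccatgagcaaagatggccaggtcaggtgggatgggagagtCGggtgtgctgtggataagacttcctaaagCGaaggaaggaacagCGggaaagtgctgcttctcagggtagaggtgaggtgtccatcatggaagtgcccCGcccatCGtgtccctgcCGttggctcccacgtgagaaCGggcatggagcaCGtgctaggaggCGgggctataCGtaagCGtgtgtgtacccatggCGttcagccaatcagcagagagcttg
Adcy3: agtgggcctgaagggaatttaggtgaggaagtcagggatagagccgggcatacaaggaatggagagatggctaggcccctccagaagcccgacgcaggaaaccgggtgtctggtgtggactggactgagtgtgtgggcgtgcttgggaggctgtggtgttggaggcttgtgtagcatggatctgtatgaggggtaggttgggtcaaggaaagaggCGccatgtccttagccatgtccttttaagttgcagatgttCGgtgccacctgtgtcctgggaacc

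Of the CpGs in these stretches, 30 of 31 at Hsf5, 25 of 25 at Dazl, 15 of 15 at D1Pas1, 29 of 36 at Ddx4, 19 of 21 at Mael and 12 of 13 at Sycp3 stood at 70% or more in Control. Adcy3 was the exception, with 2 of 7. Promoter windows of 300 bases held 386000 listed CpGs genome-wide, and 100% of them fell on a CG of the RefSeq sequence.

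A member near the limit of the rule held microRNA genes. The region at chr2:29845001-29846000, at an end of Cercam, contains Mir219a-2 and Mir219b, which lie on opposite strands. The miR-219 family is known from oligodendrocyte differentiation. Mature sequences from RefSeq on GRCm38.p6 are given with the seed, bases 2 to 8, in capitals.
mmu-miR-219a-5p: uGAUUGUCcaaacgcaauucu
mmu-miR-219b-3p: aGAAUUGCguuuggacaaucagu

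The Mir219a-2 region held 61 CpGs and read 70.8, 62.9, 69.9, 76.9 and 72.7% in Control and 68.3, 71.0, 64.6 and 57.2% in Susceptible libraries. Susceptible 7 was the lowest. The region was named for its low Susceptible level, and the rule required a high Control level. Both choices favour a Susceptible level below Control. The unadjusted p of 0.0547 (quasi-binomial test with limma's moderation, adjusted p = 0.997) is therefore given as a description only. A region in Pou2f2 with Mir6537 on chromosome 7 read 89.9% in Control and 90.8% in Susceptible calls.

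Methylated regions became rare as CpG density rose. Of regions with 20 to 29 CpGs, 76.5% were at 70% or more in Control, against 47.8% of those with 30 to 39, 16.4% with 40 to 49, 5.75% with 50 to 59 and 0.167% with 100 or more. Members held a median of 44 CpGs, from 40 to 122, where the 16725 dense regions under 30% held a median of 62. Of the 1236 members, 929 had fewer than 50 CpGs and 3 had 100 or more. The member count thus moved with the CpG minimum, to 7330 regions at 30 CpGs and 307 at 50. A further 788 dense regions, intermediate between 30% and under 70%, are compared with the members below.

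**Figure D1:**
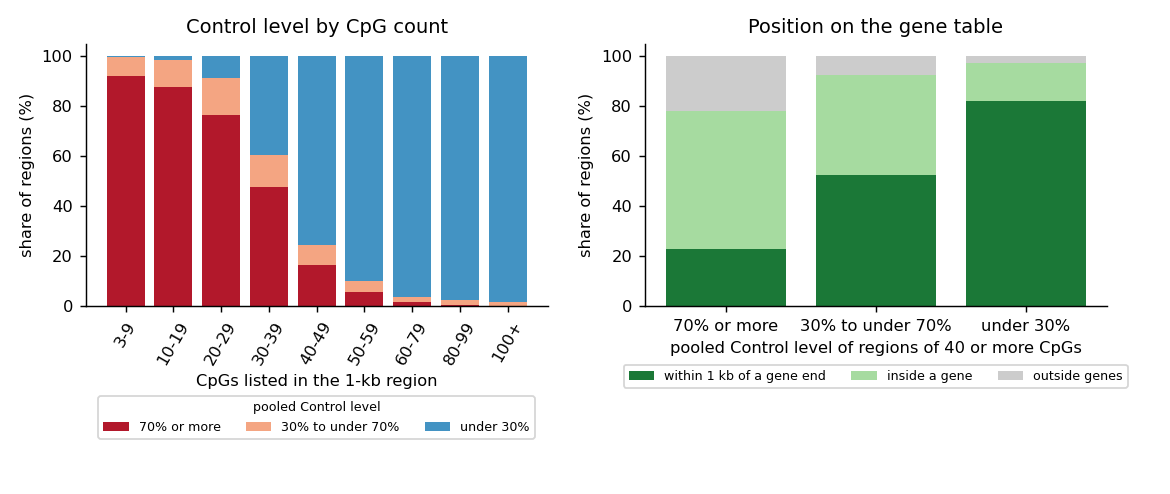
Left, the share of autosomal 1-kb regions at 70% or more, 30% to under 70% and under 30% pooled Control methylation, by the number of CpGs listed in the region; the methylated share falls from 76.5% at 20 to 29 CpGs to 0.167% at 100 or more. Right, the position of dense regions of each level class on the RefSeq gene table; 22.8% of the methylated and 82.1% of the unmethylated dense regions lie within 1 kb of a gene end.

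The Control level that chose the members had a median of 93.1%. It lay between 70 and 80% in 146 members, between 80 and 90% in 240, between 90 and 95% in 482 and at 95% or more in 368. The members just inside the limit of 70% were regions in Tmem151a (70.2%), Fzd7 (70.2%) and Zfp282 (70.3%). The dense regions just outside it were one nearest to Gm40880 (69.9%), one at Pcdhb10 (69.5%) and one in Cbfa2t3 (69.5%).

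Single CpGs were also read in the Susceptible calls alone, whose levels the rule did not use. Of 56938 CpGs in members with such calls, 93.2% stood at 70% or more and 0.516% under 30%. No CpG under 30% was found in 1115 members, and 18 members held 5 or more such CpGs. In the Control calls, which chose the members, the shares were 92.02 and 0.667%. With the calls of all 9 libraries pooled, Gm38407 on chromosome 12, at 10449001 to 10450000, held 24 of its 50 CpGs under 30%, and Dazl 16 of 79.

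The densest members were a mixed set. Shroom3, an actin-binding protein of epithelial cell shape, held the region of most CpGs, with 122 on chromosome 5 at 92942001 to 92943000 inside the gene. Control 2, 3, 4, 5 and 8 stood at 93.1, 92.4, 94.2, 92.3 and 90.7% there, while Susceptible 2, 3, 6 and 7 stood at 93.3, 92.9, 90.05 and 90.4%, so the groups overlapped. Library values are given in this order throughout. Hsf5, with 103 CpGs on chromosome 11 at 87617001 to 87618000, read 93.6, 93.4, 93.2, 91.3 and 94.1% in Control libraries and 93.8, 94.4, 94.5 and 91.7% in Susceptible libraries. Crb2, a cell polarity protein, had 97 CpGs and means of 71.4% ± 1.30 (SD, n = 5) and 72.0% ± 2.54 (SD, n = 4). Chst13, a chondroitin sulfotransferase, had 93 CpGs at the gene end and means of 89.7% ± 0.651 (SD, n = 5) and 88.6% ± 2.11 (SD, n = 4).

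Members lay mostly inside genes. On the RefSeq table of GRCm38.p6, 686 members (55.5%) were inside a gene and farther than 1 kb from any gene end, 282 (22.8%) were within 1 kb of an end and 268 (21.7%) were outside genes. Of the unmethylated dense regions 82.1% were at a gene end, 15.2% inside and 2.71% outside, and of the intermediate ones 52.4, 40.4 and 7.23%. With ends taken at 500 bp the share at an end was 16.5% of members against 74.6% of unmethylated regions, and at 2000 bp 33.3% against 88.0%. Among genes overlapped, 760 were protein-coding, and 575 of these (75.7%) also held an unmethylated dense region. The table gives no exons, so which part of a gene a region covers was not analysed here.

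Even the members at a gene end were more often at the 3′ side. Where the promoter table gave the strand, 96 of the 282 lay at a 3′ end only, 58 at a 5′ end only and 25 at both, while 103 were at genes without a strand in that table. Of the unmethylated regions at an end, 9721 of 13728 lay at a 5′ end only and 400 at a 3′ end only. A start site of the promoter table fell inside 42 members (3.40%), against 50.2% of unmethylated and 15.1% of intermediate dense regions.

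The class outside genes had less sequence behind it. Its median was 25.1 calls per CpG and library, against 43.8 inside genes and 43.0 at ends, and 28.0% of its members had fewer than 20, against 5.10% inside genes. The median distance to the nearest gene was 20912 bp. Its Control median was 94.0%, with 93.1% inside genes and 91.5% at ends. The part of mapping to repeated sequence was not tested, since no repeat annotation was used here. Above 100 calls per CpG and library stood 4 members. The highest was a region in Sfi1, a centrosome protein gene, with 1226 calls per CpG. The others overlapped Mup-ps15 (135) and Gm12892 (122) or lay nearest to Gm32719 (146).

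The 48 start sites inside members belonged to 44 genes, 37 of them protein-coding. Of these 44, 12 were on a list of 47 genes known from germ cells (Brdt, Dazl, Ddx4, Dmrtb1, Dpep3, Hormad1, Hsf2bp, Mael, Rpl10l, Stk31, Syce1 and Sycp3). Others with known roles in germ cells or meiosis, named after their values were seen, were Hsf5, D1Pas1, Sycp2, Syce3, Tex12, Taf7l2, Sohlh2 and Ankrd31. H2ac1 and H2bc1, testis histone genes, shared 1 member. Of the 48 promoter windows, 47 stood at 70% or more in Control and 46 in Susceptible libraries. Susceptible means were higher than Control means in 24 and lower in 24.

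**Figure D2:**
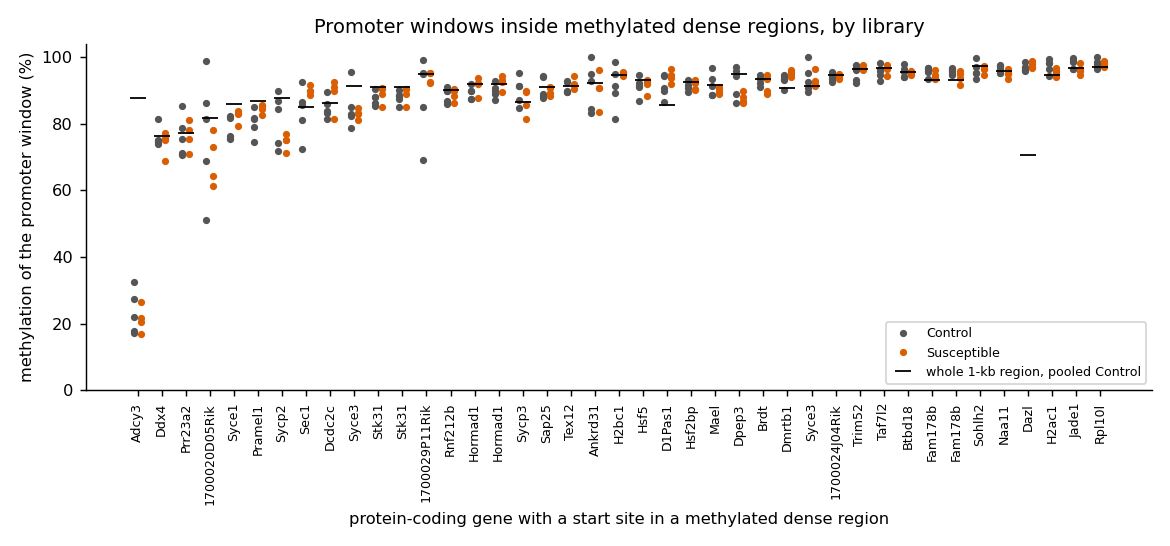
Methylation of the promoter window (percent) for each protein-coding start site inside a methylated dense region, with a point per library (5 Control, 4 Susceptible) and a dash for the pooled Control level of the whole region. Adcy3 lies near 23.4% in Control while its region is at 87.7%, and Dazl lies at 96.9% while its region is at 70.7%.

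Germline promoter windows with a start site inside a member were high in both groups. Members were chosen on a high Control level, so high Control windows were largely set by that choice and are given as a description. Listed genes without a start site in a member could not appear among them. Hsf5 read 91.0, 92.2, 91.3, 86.8 and 94.6% in the Control libraries and 92.1, 92.6, 93.1 and 88.5% in the Susceptible libraries. Ddx4 was lower, at 74.95, 74.0, 75.2, 74.6 and 81.6% in Control and 75.9, 77.4, 69.0 and 75.3% in Susceptible libraries. Mael read 88.6, 88.6, 93.5, 96.9 and 91.5% in Control and 89.4, 90.6, 89.1 and 91.0% in Susceptible libraries. Control and Susceptible values overlapped at each of the 3 windows. Over the 12 listed genes the window means ran from 76.1 to 98.0% in Control and from 74.4 to 97.9% in Susceptible libraries.

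Of the 47 genes of the germline list, 44 were on the autosomal gene table, and 23 had a dense region within 1 kb of a gene end. In 13 of these it was a member, in 4 intermediate (Tdrd1, Smc1b, Meioc and Boll) and in 6 unmethylated. Of all 13916 genes with a dense region at an end, 330 (2.37%) had a member there, and in 462 (3.32%) the highest was intermediate. Sycp1, another synaptonemal complex gene, was a member at an end without a start site inside, with means of 94.4% ± 1.05 (SD, n = 5) and 94.7% ± 0.798 (SD, n = 4). Rpl10l, a ribosomal protein gene of the testis, had the highest Control level of the 13, with means of 97.2% ± 0.648 (SD, n = 5) and 97.8% ± 0.277 (SD, n = 4). Of the imprinted list, 0 of 27 genes with a dense region at an end had a member there, which is near the 2.37% of all such genes, and in 18 the highest was intermediate. Members inside Peg10 (95.2% in Control) and Trappc9 (96.2%) and 2 in Zfp777 were away from gene ends.

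At Dazl and Adcy3 the member adjoined an unmethylated dense region. The Dazl promoter window had means of 96.9% ± 1.12 (SD, n = 5) and 97.6% ± 0.980 (SD, n = 4), within a region at 70.7%. The adjoining region of 43 CpGs, at 50292001 to 50293000, read 1.78% in Control and 2.08% in Susceptible calls. At Adcy3 the window read 22.2, 27.4, 17.3, 32.5 and 17.7% in Control and 21.8, 26.6, 20.6 and 17.0% in Susceptible libraries. Its region, at 4134001 to 4135000 on chromosome 12, adjoins one of 87 CpGs at 1.22%, so this start site lies at the border between them.

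In the 48 promoter windows the hexamer GCGGGA, searched on both strands, was present in 16 (33.3%), against 20.2% of all 31396 promoter windows and 43.4% of those in unmethylated dense regions. The E-box CACGTG, a palindrome that can share no more than an end base with GCGGGA, was present in 13 (27.1%), against 7.14% of all windows and 10.7% of those in unmethylated dense regions. Windows of 1 gene can overlap, and by gene CACGTG was present in 10 of 44 (22.7%), against 8.11% of all genes with a window and 11.5% of those in unmethylated dense regions. These shares are descriptions of letters and no binding was measured.

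The flanks of members were methylated as well. Regions 1 kb before and after a member stood at 86.3 and 85.5% in Control, and those 10 kb after at 77.8%, while the members' own mean was 90.5%. Around unmethylated dense regions the regions 1 kb away stood at 31.3 and 31.4%, and those 10 kb before and after at 78.1 and 78.5%. Both neighbours were at 70% or more in 688 of 844 members with both measured (81.5%), against 2.82% for unmethylated dense regions. The regions 1 kb before and after members held means of 22.8 and 23.2 CpGs. Most autosomal regions are methylated at such densities, with 76.5% of those of 20 to 29 CpGs and 87.8% of those of 10 to 19 at 70% or more. The share with both neighbours at 70% or more was not computed over all regions. Only 39 members (3.16%) had a neighbour under 30%.

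**Figure D3:**
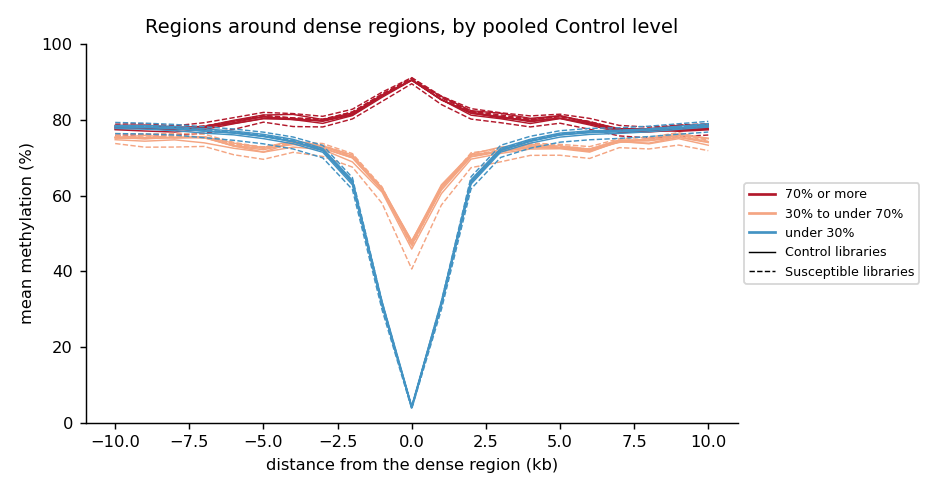
Mean methylation (percent) of 1-kb regions by distance from a dense region, in kb, for the 3 classes of Control level, with a line per library (solid Control, dashed Susceptible). The members form a peak at 90.5%, which falls to 77.8% at 10 kb, and the unmethylated dense regions a trough at 4.08%. The central regions were chosen by their Control level and the flanks were not, so the peak and trough are a description.

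Those beside an unmethylated region differed from the rest in level and position. Their Control median was 85.5% against 93.2% for the other 1197 members, and 48.7% lay at a gene end against 22.0%. Of the 39, 24 had a dense neighbour under 30%. One of these, named after its values were seen, was in Drd5, a dopamine receptor gene, with 90.3% in Control and 92.6% in Susceptible calls beside a region at 9.52 and 8.64%. Another was in Kcna6, a potassium channel gene, with 88.7 and 89.1% beside 12.7 and 12.2%.

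Members formed few long stretches. There were 1090 single members, 55 pairs and 9 runs of 3 or more, which together held 146 members. The longest run was 10 regions of Plec, the cytoskeletal linker plectin, on chromosome 15 at 76172001 to 76182000, with 570 CpGs. Control levels of these 10 ran from 95.1 to 97.5%, and their mean was 96.3% in Control and 96.3% in Susceptible libraries. A further Plec member at 76183001 brought the gene to 11 methylated dense regions, beside 2 unmethylated ones.

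A run of 5 lay in Spen, a transcriptional repressor, on chromosome 4 at 141474001 to 141479000, and was lower and less even. Its Control levels ran from 80.2 to 92.7%, and its mean was 85.6% in Control and 82.6% in Susceptible libraries. Susceptible 7 had the lowest mean, 75.6%, and without it, a setting chosen after seeing the data, the Susceptible mean was 84.9%. The Spen region at 141477001 had an SD of 11.9 between Susceptible libraries, and 0 of the 5 regions had an unadjusted p under 0.05 in the group test described below. Runs of 3 were found in Zfp865 (91.1% in Control and 90.5% in Susceptible), in Disp1, which releases Hedgehog ligands (96.5 and 96.7%), and across Grin3b, an NMDA receptor subunit gene, and Tmem259 (88.0 and 88.0%). Fat1, an atypical cadherin, held 6 members from 92.2 to 97.9%, and Zfhx3, a homeobox zinc finger factor, held 5 from 81.9 to 98.0%.

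Gene families differed in how often their dense regions were methylated. The background is 6.59% of all dense regions and 5.47% of those overlapping a gene. Plakins and spectrins stood highest among families with 20 or more dense regions, with 18 of 50 (36.0%), of which Plec gave 11. LDL receptor related genes had 7 of 23 (30.4%) and adhesion GPCRs 13 of 45 (28.9%). In Celsr2, a cadherin-like receptor of cell polarity, 4 members ran from 77.1 to 98.3%. Zinc finger genes gave the most members of any named function, 74 of 490 (15.1%) in 55 genes. Potassium channels had 16 of 124 (12.9%), one of them at the end of Kcnv2 with means of 96.9% ± 0.623 (SD, n = 5) and 96.8% ± 0.352 (SD, n = 4). Symbols of predicted genes (Gm) had 116 of 2108 (5.50%) and RIKEN genes 18 of 867 (2.08%).

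Hox genes had 0 of 80 dense regions methylated, ADAM and ADAMTS proteases 0 of 46, and Fox, Sox, Pax and Tbx factors 1 of 205. Solute carriers had 9 of 303 (2.97%). These families and their members were chosen with the data known, and a region that overlaps genes of different families was counted in each.

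**Figure D4:**
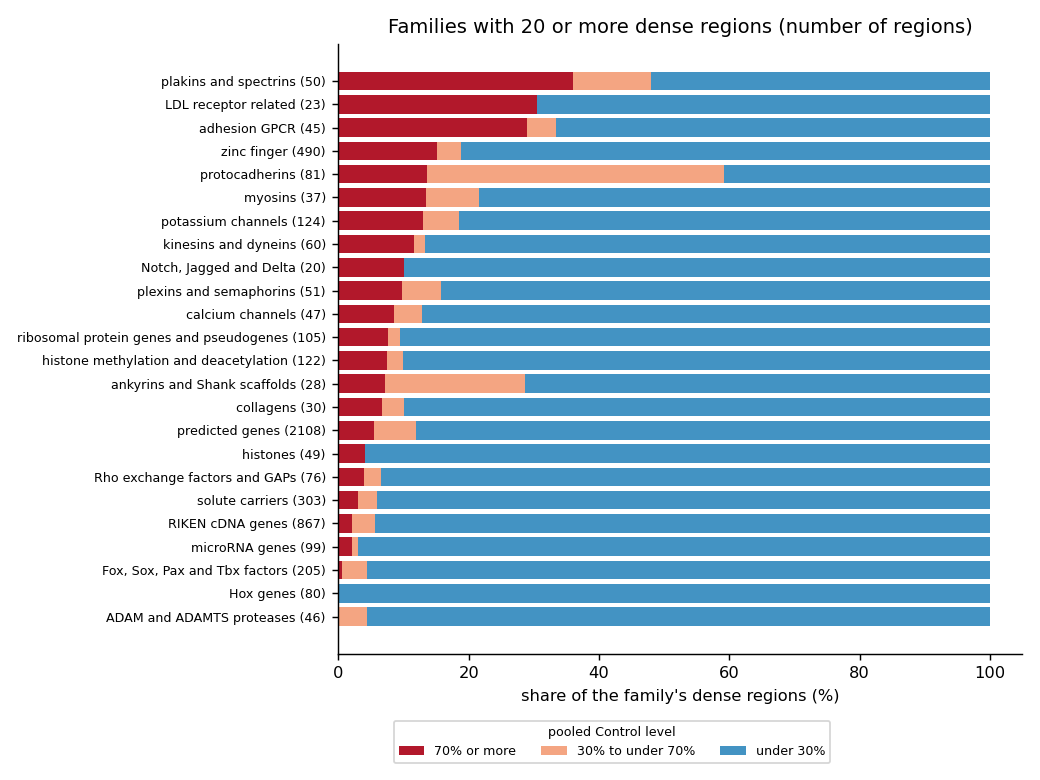
Share of dense regions (percent) in each class of pooled Control level, for symbol families with 20 or more dense regions, whose number is in brackets. Plakins and spectrins have the highest methylated share, 36.0%, and Hox genes have 0 of 80.

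Protocadherins, the clustered cell adhesion genes of neurons, were often intermediate. Of their 81 dense regions 11 were members, 37 intermediate and 33 unmethylated. The 11 members, 10 of them in the alpha and beta clusters on chromosome 18 and 1 in Pcdh1, stood between 71.0 and 78.0% in Control. The one at the end of Pcdha1, at 36931001 to 36932000, had means of 76.1% ± 5.61 (SD, n = 5) and 76.8% ± 2.26 (SD, n = 4). The member at Pcdhb15, at 37475001 to 37476000, had 76.4% ± 1.21 (SD, n = 5) and 75.3% ± 2.42 (SD, n = 4). Median SD over the 9 libraries was 3.60 for the family, against 4.57 for the 146 members between 70 and 80% and 1.84 for all members. Clustered protocadherins are similar in sequence, and whether reads were shared between copies was not tested.

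Libraries differed in depth and noise. Deposited calls at listed cytosines ran from 313475624 to 430312082 in Control and from 432409939 to 570984634 in Susceptible libraries. Members had a median of 1200 to 2373 calls per library. Strand agreement was measured over autosomal CpGs read on both strands, leaving out those of very high or very low level. It was not measured in the members alone. The strands of such a CpG disagreed 18.4 and 19.7 times the binomial amount in Control 5 and 8 against 2.38 to 6.10 times in the others. Control 5 or Control 8 gave the lowest level at 265 and 225 members and the highest at 325 and 261. Counts within a library are not independent molecules, so depth limits are counting limits only.

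The members' methylation carried over to the Susceptible libraries, whose methylation levels the rule did not use. Pooled Susceptible calls stood at 70% or more in 1220 of 1236 members, and all 4 Susceptible libraries did in 1165 (94.3%). All 9 libraries did in 1124, and 3 members fell under 50% in any library. Chosen on Susceptible calls instead, the rule gave 1236 regions, of which 1220 were shared.

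Mean levels over the members were nearly the same in both groups. The Control libraries stood at 90.5, 90.4, 90.4, 90.5 and 90.5%, while Susceptible 2, 3, 6 and 7 stood at 91.0, 90.9, 91.1 and 89.5%. Susceptible 7 was below every Control library and the other Susceptible libraries were above every one. The means of 90.5% ± 0.0563 (SD, n = 5) and 90.6% ± 0.762 (SD, n = 4) differed by +0.184 points, within the spread of Susceptible libraries, and by +0.563 without Susceptible 7. No test was applied, because the members were selected on Control levels. These SDs are of library means over all members. At single members the order was reversed, with a median SD of 2.07 points between Control and 1.20 between Susceptible libraries. Intermediate dense regions read 40.6% in Susceptible 7 and 45.9 to 48.1% in the other 8.

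**Figure D5:**
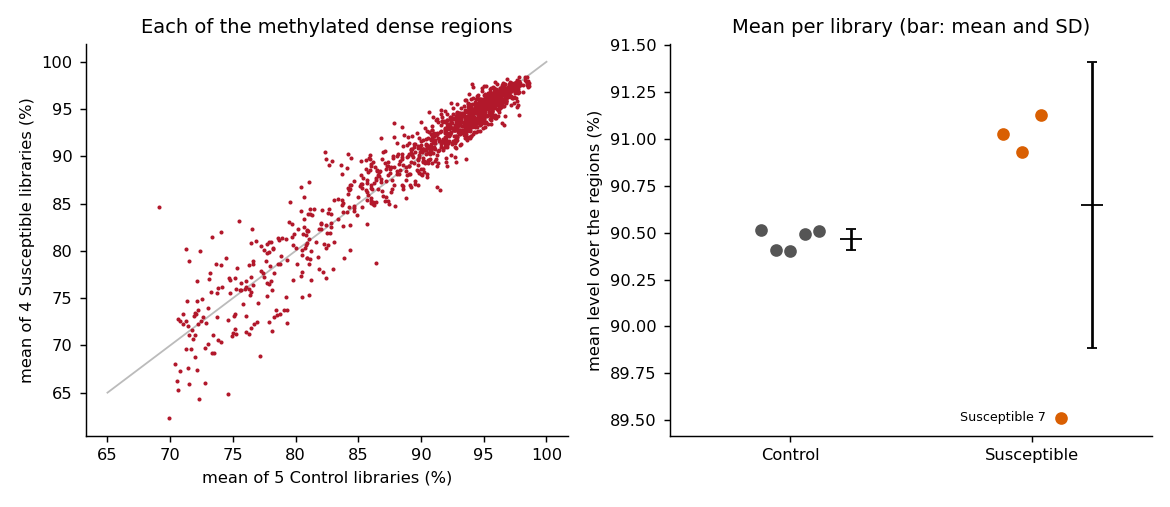
Left, each of the 1236 members by its mean level in 5 Control and 4 Susceptible libraries (percent), with the line of equality. Right, the mean level over members in each library, with group mean and SD; the axis does not start at 0, and Susceptible 7 lies lowest at 89.5%.

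Single members differed little. Susceptible means were higher in 678 members and lower in 558, or 789 and 447 without Susceptible 7, while 47.6% of all regions tested were higher with all 9 libraries. The median absolute difference was 0.881 points, against 1.38 in regions of 20 to 39 CpGs at 70% or more and 0.445 in unmethylated dense regions. It was 2.31 over the 1041809 regions tested genome-wide, which needed only 3 CpGs and 20 calls in each library. The dispersion, the spread between libraries relative to counting noise, had a median of 7.54 in members. Its median was 7.53 in regions of 20 to 39 CpGs at 70% or more and 6.33 over all regions tested. For a given SD the dispersion is larger where calls are more, and calls were not matched. Median SDs between Susceptible libraries were 3.89, 2.37, 1.11 and 0.700 points in members, by the Control level bands given above from lowest to highest. Regions of 20 to 39 CpGs had 5.10, 2.99, 1.66 and 1.18 in the same bands. These SDs include counting noise. Camk2b, which encodes the beta subunit of calmodulin kinase II, held the 1 member that differed by 10 points or more. That is 0.0809% of members, against 4.10% of all regions tested and 0.659% of regions of 20 to 39 CpGs at 70% or more. The shares were 5.96% in intermediate and 0.126% in unmethylated dense regions.

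No member passed an adjusted p under 0.05 in the quasi-binomial test, with Benjamini-Hochberg adjustment over 1041809 regions, where 0% were called; the smallest adjusted p of a member was 0.997. The test uses the Control levels that chose the members, so the counts below and their direction are given as descriptions only. At an unadjusted p under 0.05 there were 55 members (of 1236) higher in Susceptible, against 2.18% of all regions, and 21 lower, against 2.19%. Both counts together were 76, or 6.15% of members, against 4.38% of all regions, 6.12% of unmethylated and 17.1% of intermediate dense regions. Under limma on logit levels 6 members, or 0.485%, had such a p, against 3.25% of all regions, and 0 were called. Without Susceptible 7 the counts were 79 higher and 14 lower, against 2.49 and 1.35% of all regions. Without Susceptible 6 they were 34 and 20, against 1.05 and 1.78% of all regions, and without Susceptible 2 they were 41 and 27, against 1.86 and 1.98%. More members were higher than lower whichever library was left out, but the size of the split moved with the library. The choice on Control levels can affect this direction. The groups did not overlap in 12 members with Susceptible higher, where 0.598% of all regions did so, and in 6 with Susceptible lower, where 0.96% did. Those shares are 0.971 and 0.485% of members.

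The 3 members of smallest unadjusted p with Susceptible higher were in Zfp532, D1Pas1 and Ube2o, and all missed the threshold. Zfp532, a zinc finger gene on chromosome 18 at 65624001 to 65625000, read 74.5, 64.7, 70.8, 77.3 and 69.0% in Control and 80.9, 76.7, 85.6 and 77.6% in Susceptible libraries. The difference was +8.93 points (adjusted p = 0.997 from the limma-moderated test), and the groups overlapped at 77.3 and 76.7%. D1Pas1, whose promoter is printed above, read 88.7, 83.0, 84.9, 86.0 and 86.5% in Control and 90.4, 90.3, 90.6 and 88.1% in Susceptible libraries, a difference of +4.04 points (adjusted p = 0.997 from the limma-moderated test). Ube2o, a ubiquitin-conjugating enzyme gene on chromosome 11 at 116541001 to 116542000, was the only one of the 3 whose groups did not overlap. It read 80.7, 84.8, 82.6, 85.1 and 80.3% in Control and 86.6, 86.9, 93.1 and 89.8% in Susceptible libraries, a difference of +6.41 points (adjusted p = 0.997 from the limma-moderated test).

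The 3 with Susceptible lower were in Zfp46, Gm4740 and Zfp777. Zfp46, a zinc finger gene on chromosome 4 at 136290001 to 136291000, read 72.2, 76.2, 70.5, 73.7 and 75.1% in Control and 69.3, 71.2, 70.7 and 65.5% in Susceptible libraries. The groups overlapped and the difference was -4.35 points (adjusted p = 0.997 from the limma-moderated test). Gm4740 on chromosome 15 and the imprinted list gene Zfp777 on chromosome 6 differed by -6.92 and -4.61 points, with the same adjusted p in the limma-moderated test.

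The SD over the 9 libraries had a median of 1.84 points in members, against 0.843 for unmethylated and 6.51 for intermediate dense regions, and exceeded 5 in 91 members. It was largest in Camk2b at 6007001 to 6008000 on chromosome 11, at 15.003 points. That region read 86.5, 50.8, 83.6, 74.3 and 50.4% in Control and 82.7, 80.9, 89.4 and 85.5% in Susceptible libraries, so Control 3 and 8 stood far below the rest. Its difference of +15.5 points had an unadjusted p of 0.00940 (limma-moderated test, adjusted p = 0.997). The adjoining Camk2b member at 6006001 showed the same libraries lowest, with 73.8% in Control 3 and 64.0% in Control 8 against 83.7 to 93.7% in the other 7. Gm38407 (SD 12.9) and a region nearest to Gm3800 (12.4) followed. The Camk2b region had 18.02 calls per CpG and library, and these others 13.98 and 16.8, all below the member median of 39.97.

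The members of highest Susceptible level lay in AI506816, Srrm2, a splicing factor gene, and Vmn2r-ps23. Srrm2, at 23819001 to 23820000 on chromosome 17, had means of 98.3% ± 0.454 (SD, n = 5) and 98.4% ± 0.422 (SD, n = 4). The lowest were Fzd7, a Wnt receptor gene, Ccdc8, a region at Gm36414 and Ccdc151, the Mir219a-2 region and Lrfn1. At Fzd7 the Control libraries read 69.2, 65.5, 62.2, 78.9 and 73.8% and the Susceptible libraries 67.4, 69.2, 66.9 and 45.8%, so Susceptible 7 held the lowest value. Ccdc8 was also lowest in Susceptible 7, at 53.7%, where its Control libraries ran from 65.3 to 78.3%. All 5 had Control levels between 70.2 and 73.4%, near the limit that chose them.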

How the data were processed

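Whole-genome bisulfite libraries of 9 mice, 5 Control and 4 Susceptible, were used. The submitters' processing notes name Bismark, Bowtie, Picard and mm10, without versions or order. Per the file headers, each deposited file lists cytosines by strand with the count of calls and the percent read as C and the percent read as T, and the authors listed no cytosine under 10 calls. Calls at listed cytosines summed to 313475624 to 570984634 per library. Methylated calls were recovered as count times percent. The strands of a CpG were added, and CpGs were summed into 1-kb regions of autosomes, counted from 1. Where nothing says how libraries relate beyond their number and group, p-values measure the spread between these samples.

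Gene positions, start sites and sequences came from RefSeq tables of GRCm38.p6. Members needed 40 CpGs, 100 calls in every library and 70% in pooled Control calls. For the group comparison, regions of autosomes and X that had 3 or more CpGs and 20 or more calls in each library entered a quasi-binomial logistic model whose dispersion was moderated by the formulas of limma (3.58.1) and kept at 1 or more, with an F test and Benjamini-Hochberg adjustment. The code was tested on simulated data with drops larger than the difference at any member. Its power for smaller differences was not tested. limma on logit methylation (offset 0.5) was an alternative, as were other limits, weightings, filters and left-out libraries. Python 3.11.15, numpy 2.4.6 and pandas 2.3.3 were used.

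The members, the 30 symbol families and the germline and imprinted lists were chosen with earlier results of these data known. Named regions followed a rule: the 5 members of most CpGs, the 5 longest runs, the 5 highest and 5 lowest in Susceptible level, the 3 of smallest p in each direction, the 3 of largest SD, 3 on each side of the 70% limit, the 5 of most CpGs at protein-coding gene ends, listed genes with a member at an end, and 2 members of each of the 5 largest families. Others named in the text were chosen after their values were seen. Exons, repeats and the sequence of regions outside promoters were not analysed here. The group test assumes independent libraries; 43 dense regions lacked the calls. The region of 1 gene that the rule names is not reported here.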

Additional observations from a re-analysis of the deposited data

Results flagged for a closer look

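Dixon's gap criterion was applied to 56 groups of values, equally many from Control and from Susceptible libraries. Chance flags about 1 in 20 groups that were not picked by their values. Many of the regions here were named for a low Susceptible level, a small p or a large SD, so that rate does not apply to them. The criterion flagged 5 groups, none of them Control. In all 5, Susceptible 7 lay apart from the other 3 Susceptible libraries. Its mean over all members was 89.5%, its mean over members at a gene end was 87.3% and its mean over members inside genes was 89.2%. The region in Fzd7 stood at 45.8% there, and the D1Pas1 region at 88.1%. These values share 1 library and overlapping regions, so they are not independent flags. Susceptible 7 gave the lowest level of the 9 libraries at 225 members (18.2%), against 37, 60 and 63 members for Susceptible 2, 3 and 6. Control 5 was lowest at 265 members and Control 8 also at 225. Its place in the group difference is seen in the values without it, +0.563 against +0.184 points. Susceptible 7 was also the lowest library away from members. Regions 10 kb before unmethylated dense regions read 76.3% in Susceptible 7, against 77.7 to 79.3% in the other libraries. The unmethylated dense regions themselves read 3.68%, against 3.93 to 4.39%. What sets this library apart was not tested.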

How the results depend on the processing

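The member count kept within 1.5 times of 1236 under 13 of the other settings tried, from 1090 (80% limit) to 1366 (60% limit), and from 1233 to 1237 with 1 Control library left out. It moved to 7330 with 30 CpGs, 307 with 50 CpGs and 243 when only CpGs listed in all 9 libraries counted. The share of members at a gene end moved from 22.8% to 16.5% at 500 bp, 33.3% at 2000 bp and 15.7% with protein-coding genes only. The mean difference of +0.184 points stayed positive, from +0.0242 without Susceptible 6 to +0.563 without Susceptible 7 over left-out libraries, and was +0.0866 with calls summed, +0.319 with members chosen on Susceptible libraries and +0.516 with the replicate block. The count of members at an unadjusted p under 0.05, 76 in the quasi-binomial test, ran from 54 (4.37% of members, against 2.84% of all regions) to 95 (7.69 against 5.36%) with 1 library left out, was 53 without moderation (4.29 against 4.37%), and moved to 6 with limma on logit methylation. With numbers 2 and 3 as a replicate block, on 4 libraries with 1 residual degree of freedom, it was 139 (11.2% of members, against 5.16% of all regions). The block called 31 of 1041809 regions. Among them 1 member, at 147219001 to 147220000 on chromosome 4, was called (adjusted p = 0.0226 from the limma-moderated test) where 0 were called otherwise; its unblocked p was 0.00624. The labels do not say that the numbers pair mice. The 6 differences named for their p were chosen on these libraries, so that their direction was the same under all 11 settings tried for each is no sign of stability. Of those settings, the pooled calls and the CpGs listed in all 9 libraries were chosen after seeing the data. Regions outside genes had the fewest calls per CpG of the 3 position classes, a median of 25.1, with a median SD over libraries of 1.74, against 1.80 inside genes and 1.99 at ends.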
